A study of Mus musculus with 24 samples.

Results

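Whether loss of the glucagon receptor alters how the mouse liver changes across birth was examined in 16 of the 24 arrays of the series, in 4 groups of 4 libraries. The groups were livers labelled wildtype (WT) or GCGR KO (KO), each at E18.5, an embryonic stage just before birth, and at P2.5, in the first postnatal days. The question was put gene by gene as an interaction, the change from E18.5 to P2.5 in KO minus the same change in WT, for all 16805 genes with a detected probe. A positive interaction means that the gene went further up, or less far down, across birth in KO than in WT, and a negative one the reverse. The labels give tissue, genotype and age, and leave out strain, sex, the design of the allele and whether separate animals were used for each library, so p-values measure the spread between these samples, which may be in part technical. Liver RNA was labelled with Cy5 and hybridised beside a Cy3-labelled mouse reference RNA that all arrays share. Each value below is a log2 Cy5/Cy3 ratio from 1 probe per gene, on which a difference of 1 is a 2-fold change, and levels of different genes are not compared.

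The glucagon receptor is a Gs-coupled receptor of hepatocytes. Glucagon raises cyclic AMP, which activates protein kinase A and, through CREB, its coactivators and other factors, genes of gluconeogenesis and amino acid breakdown. At birth the glucose supply from the placenta ends and plasma glucagon rises, and the liver begins to make glucose, oxidise milk fat and dispose of amino acids, while blood formation, a main task of the fetal liver, moves to bone marrow and spleen.

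The targeted gene followed the labels in all 16 libraries. Gcgr read 5.07, 5.74, 5.28 and 4.87 in E18.5 WT and 5.51, 5.75, 6.26 and 5.74 in P2.5 WT, against 0, -0.01, 0.13 and 0.19 in E18.5 KO and 0.17, 0.38, 0.37 and 0.19 in P2.5 KO. KO and WT did not overlap at either age. The KO minus WT difference was -5.16 ± 0.17 (SE) before birth and -5.54 ± 0.17 after it, and the interaction of -0.38 ± 0.24 did not pass the test (limma, adjusted p = 0.297).

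Of 39429 probes, 28110 to 30460 were well above background in Cy5 in E18.5 WT and 28227 to 31362 in P2.5 WT. In E18.5 KO 26095 to 27903 were, and in P2.5 KO 22668 to 27837. Every KO library thus lay below every WT library, and the part of this difference in the results was not tested. Libraries correlated with the others of their group at 0.951 to 0.991 on average. WT libraries lay on slides 1 to 5, and 3 of these slides held both ages. All 4 E18.5 KO libraries lay on slide 6. P2.5 KO 1, 2 and 4 lay on slide 7 and P2.5 KO 3 on slide 8. All WT arrays were scanned in session 1, and the KO arrays in session 2 apart from P2.5 KO 3 in session 3. Genotype and scan session thus cannot be told apart. A constant offset between WT and KO slides cancels in the interaction, but the age of KO livers and their slide cannot be told apart. Both WT arrays of slide 2, E18.5 WT 2 and P2.5 WT 3, stood apart with the highest mean of small structured RNAs in their groups, 1.65 and 1.35. In KO that mean was 0.48, 0.58 and 0.89 in P2.5 KO 1 to 3, against -0.43 in P2.5 KO 4. In E18.5 KO it was -0.39 to -0.13. The part of this split within KO in the results was not tested. Ddx3y, a Y-linked gene, was above 0 in 1 E18.5 WT, 3 P2.5 WT, 2 E18.5 KO and 4 P2.5 KO libraries, and the part of sex in the results was not tested.

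The interaction passed an adjusted p of 0.05 for 2584 of 16805 genes, or 15.4% (limma with Benjamini-Hochberg adjustment over all genes tested, as throughout). It was positive for 911 genes (5.42%) and negative for 1673 (9.96%), and it was at least 2-fold for 485 (2.89%), of which 85 were positive (0.506%) and 400 negative (2.38%). Estimates ran from -3.12 to 3.62 with a median of -0.02. The split by direction moved with the scaling, with positive calls 35.3% of all calls here, 48.7% of 2055 with the scanner software's log ratios and 48% of 2846 from Cy5 alone. Treating slide as a random block left 1309 calls. The count was 1466 without E18.5 KO 2, 1587 without P2.5 KO 1, 1700 without P2.5 KO 3 and 1713 without E18.5 KO 4.

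Most of these genes passed the test for a change across birth in 1 genotype only. A change that did not pass is counted here as no change, though its absence was not tested. In WT alone 950 changed (344 with a positive and 606 with a negative interaction), and in KO alone 1086 (396 and 690). Another 221 changed in both genotypes in opposite directions, 158 in both in the same direction by unequal amounts, and 169 in neither. The KO-only count was 356 with slide as a random block and ran from 552 without E18.5 KO 2 to 1660 without P2.5 KO 4, and the WT-only count was 559 without E18.5 WT 2 and 633 without E18.5 KO 2. Among these selected genes, an estimate that was up in WT and down in KO was the most frequent pattern, with 1271 genes. The mirror image had 641. Selection by the interaction favours opposite signs. Over all 16805 genes the WT and KO changes correlated at 0.57 (Pearson), and among the interaction genes at 0.04. The WT change passed for 28.4% of all genes, the KO change for 31.2%, and the KO minus WT difference for 23.2% before and 19.3% after birth. Read by age, 1205 genes differed between genotypes at E18.5 only, 808 at P2.5 only, 201 at both ages with opposite signs and 34 at both with the same sign. These comparisons share libraries and are not independent of each other.

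Nufip2, an RNA-binding protein, is an example of a gene that changed in opposite directions. It rose by 0.56 in WT and fell by 0.53 in KO, which gave an interaction of -1.09 ± 0.12 (adjusted p = 0.000562), and the call and direction were kept in every alternative that was run.

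**Figure D1:**
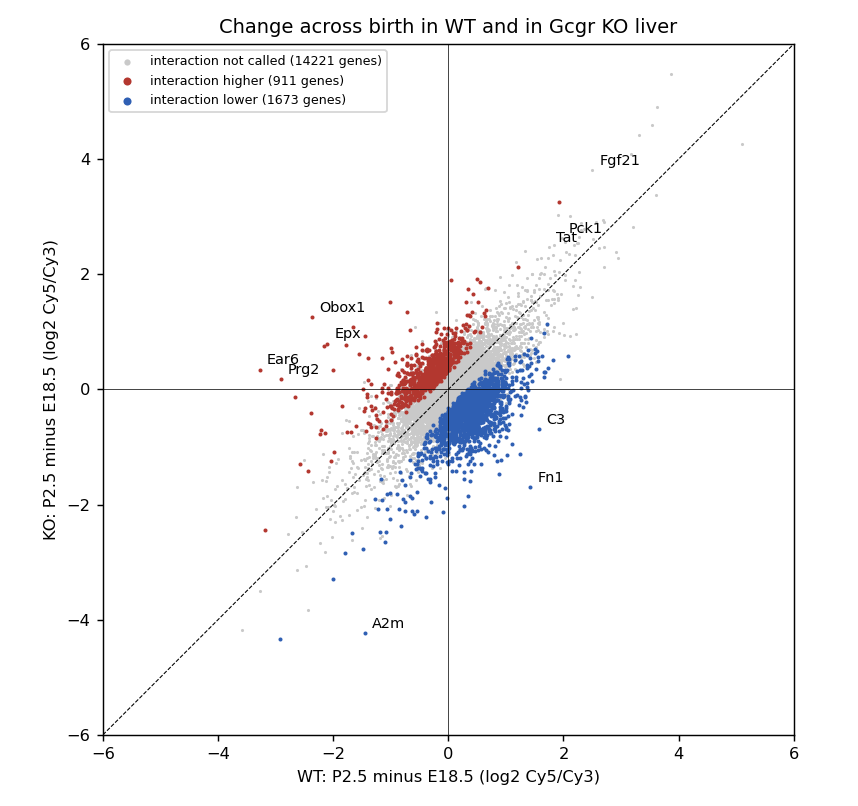
Each point is 1 of 16805 genes, with its change from E18.5 to P2.5 in WT on the x axis and in KO on the y axis (both log2 Cy5/Cy3); coloured points passed the interaction test, red with a positive sign (911 genes) and blue with a negative sign (1673 genes). Prg2 and Ear6 lie far to the left with a KO change near 0, Fn1 lies to the lower right, and Pck1 and Tat rose in both genotypes.

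Genes of eosinophil granules were among those with the largest positive interactions: they fell steeply across birth in WT, and none of Prg2, Prg3, Epx and Ear6 fell in KO. Eosinophils are granulocytes whose granules hold major basic protein, a peroxidase and ribonucleases, and GATA factors are known to act in their development. The 300-base promoter windows of Prg3, Ear6 and Epx, which are among the genes on which this result turns, are given from RefSeq (GRCm38.p6, 250 bases before to 50 after the start). They lie at chr2:84987965-84988264 (+ strand), chr14:51853518-51853817 (+ strand) and chr11:87875487-87875786 (- strand), are written 5′ to 3′ on the strand of the gene, and capitals mark a GATA core (GATAA on either strand).
Prg3: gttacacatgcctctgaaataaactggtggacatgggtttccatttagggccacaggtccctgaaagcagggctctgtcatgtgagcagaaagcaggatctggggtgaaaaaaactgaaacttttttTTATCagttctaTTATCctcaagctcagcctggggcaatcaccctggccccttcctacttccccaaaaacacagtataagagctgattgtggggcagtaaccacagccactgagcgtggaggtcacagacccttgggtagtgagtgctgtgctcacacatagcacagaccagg
Ear6: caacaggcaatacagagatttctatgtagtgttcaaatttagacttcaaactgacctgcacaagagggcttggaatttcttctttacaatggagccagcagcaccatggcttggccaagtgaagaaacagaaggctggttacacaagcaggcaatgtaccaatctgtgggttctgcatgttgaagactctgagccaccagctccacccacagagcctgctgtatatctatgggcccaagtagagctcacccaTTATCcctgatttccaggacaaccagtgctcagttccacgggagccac
Epx: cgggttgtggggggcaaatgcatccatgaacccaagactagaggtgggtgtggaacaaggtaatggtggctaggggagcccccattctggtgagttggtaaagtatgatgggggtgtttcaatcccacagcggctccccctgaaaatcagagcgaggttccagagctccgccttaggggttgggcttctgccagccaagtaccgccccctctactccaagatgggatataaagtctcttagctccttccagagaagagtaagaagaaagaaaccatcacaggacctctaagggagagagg
The core occurred at 2 places in the Prg3 window and 1 in the Ear6 window, and its letters were not in the Epx window. It was in 6 of 8 eosinophil marker windows (75%) and in 2598 of 13324 windows of tested genes (19.5%). The 8 are the windows found for the 10 markers tested. The 6 were those of Ccr3, Il5ra, Prg3, Ear1, Ear2 and Ear6. Prg2 was not among these 6, and its window is not given here. Ccr3 and Il5ra did not pass the interaction test, and the Ear genes belong to the same family, so the windows are not independent. The motif was chosen after the values were seen, and a match is a description of letters.

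Prg2, which encodes major basic protein, read 3.64, 4.14, 3.74 and 3.82 in E18.5 WT and 0.86, 1.62, 0.86 and 0.35 in P2.5 WT. It read 3.54, 3.51, 3.58 and 3.76 in E18.5 KO, then 3.97, 3.83, 3.69 and 3.62 in P2.5 KO. The 4 P2.5 WT libraries lay below the other 12, which overlapped one another; the 2 ages did not overlap in WT for 24.2% of all genes. Prg2 fell by 2.91 in WT (adjusted p = 9.48e-08), its KO change was 0.18 (adjusted p = 0.53), and the interaction was 3.09 ± 0.27 (adjusted p = 9.73e-05). The size depended on the scaling, at 1.47 with the scanner software's log ratios and 6.82 from Cy5 alone.

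Epx, eosinophil peroxidase, read 2.56, 2.04, 2.32 and 2.34 in E18.5 WT, 0.17, 0.33, 0.1 and 0.28 in P2.5 WT, 1.19, 0.98, 1.03 and 2.2 in E18.5 KO and 1.89, 1.57, 2.08 and 3.02 in P2.5 KO (interaction 2.89 ± 0.39, adjusted p = 0.00144). Prg3, a homologue of major basic protein, read 2.78, 2.97, 2.7 and 2.53 in E18.5 WT, 0.66, 0.76, 0.4 and 0.51 in P2.5 WT, 1.47, 1.09, 1.1 and 2.56 in E18.5 KO and 2.03, 1.95, 2.47 and 2.82 in P2.5 KO (2.93 ± 0.37, adjusted p = 0.00109). Ear6, an eosinophil-associated ribonuclease, read 3.31, 3.65, 3.59 and 3.3 in E18.5 WT, 0.08, 0.2, 0.42 and 0.03 in P2.5 WT, 1.81, 1.42, 1.47 and 2.95 in E18.5 KO and 2.35, 1.63, 2.08 and 2.94 in P2.5 KO. Its interaction of 3.62 ± 0.41 was the largest of all genes tested (adjusted p = 0.000657). In each of these 3 genes P2.5 WT lay below the other 12 libraries, and E18.5 KO 4 stood above the other E18.5 KO libraries.

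Unlike Prg2, whose KO minus WT difference at E18.5 was -0.24 (adjusted p = 0.408), the other 3 genes were also lower in KO than in WT before birth. That difference was -0.97 for Epx, -1.19 for Prg3 and -1.55 for Ear6, and each passed the test. After birth they were higher in KO, by 1.92, 1.74 and 2.07, and Prg2 by 2.85. Epx and Prg3 rose across birth in KO by 0.79 and 0.76 (adjusted p = 0.0398 and 0.0383). On the 3 slides that held both WT ages the WT changes were close to those over all slides, at -2.89 for Prg2, -2.07 for Epx, -2.26 for Prg3 and -3.3 for Ear6. Epx was well above background on 2 of the 4 P2.5 WT arrays.

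Further ribonucleases of the same family were among the 15 largest named rises, with interactions of 2.37 ± 0.39 for Ear10, 2.33 ± 0.37 for Ear1 and 2.18 ± 0.31 for Rnase2a. These genes are near-identical copies, so their probes can share signal and are not independent readings. With the scanner software's log ratios Ear1 (0.93, adjusted p = 0.236) and Rnase2a (1.25, adjusted p = 0.0602) did not pass.

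**Figure D2:**
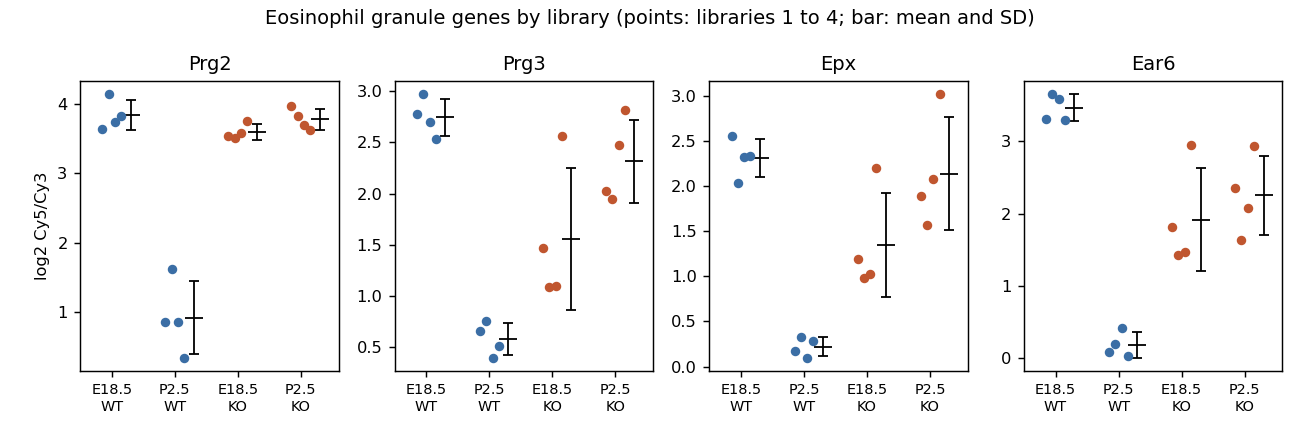
Log2 Cy5/Cy3 of eosinophil genes in each of the 16 libraries (points, WT in blue and KO in orange), with group mean and SD as bars. P2.5 WT libraries sit below all others, for Prg2 at 0.35 to 1.62 against 3.51 to 4.14.

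Of 10 eosinophil markers tested, 6 passed, each with a positive interaction, beside 5.42% of all genes, and the list's median was 1.61 (1.2 to 2.79 over the alternatives). The sixth was Ear2 at 0.89 ± 0.23 (adjusted p = 0.0204). Across birth 7 of the 10 fell in WT (11.9% of all genes fell) and 2 rose in KO (14.7% rose). At E18.5, 5 were lower in KO (9.32% of all genes), and at P2.5, 5 were higher (9.63%). The summed Cy5 signal of the 10 was 39400 to 42000 in E18.5 WT, 7770 to 11000 in P2.5 WT, 11600 to 25900 in E18.5 KO and 14000 to 30900 in P2.5 KO. The eosinophil receptor genes Il5ra and Ccr3 stayed between -0.13 and 0.68 in all libraries and did not pass. In whole liver, fewer cells of a type and less RNA per cell cannot be told apart.

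Markers of neutrophils and myeloid precursors, another granulocyte lineage, were also read. In WT 12 of 15 fell, beside 11.9% of all genes, with a median change of -1.28, and in KO 7 of 15 fell (16.5% of all genes fell in KO), with a median of -0.54. Their interaction median was 0.17 as reported, 0.61 from Cy5 alone, 0.34 with the scanner software's log ratios, 0.43 without both WT arrays of slide 2 and 0.08 with the background fitted on all spots. As reported, limma called none of the 15, with 5 at an unadjusted p under 0.05. Their summed Cy5 signal was 619000 to 815000 in E18.5 WT, 110000 to 460000 in P2.5 WT, 597000 to 653000 in E18.5 KO and 396000 to 451000 in P2.5 KO, so the P2.5 groups overlapped. Red cell markers fell in both genotypes too, 11 of 18 in WT and 13 of 18 in KO, and 3 had a negative interaction (9.96% of all genes). One of these was Hba-a1, the alpha globin, at -2.03 ± 0.5 (adjusted p = 0.0161), which was -0.06 from Cy5 alone and -2.11 (adjusted p = 0.0514) with slide as a random block.

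Among the remaining large rises Wfdc17, a small secreted protein of the whey acidic protein family, showed its change in KO. It read 1.81, 2, 1.66 and 1.33 in E18.5 WT, 1.8, 1.59, 1.48 and 2.14 in P2.5 WT, 0.64, 0.38, 0.93 and 0.55 in E18.5 KO and 2.33, 2.27, 3.06 and 2.44 in P2.5 KO. The WT ages overlapped and the KO ages did not, with a KO rise of 1.9 and an interaction of 1.85 ± 0.27 (adjusted p = 0.00181). Ephb6, a kinase-inactive ephrin receptor, fell by 2.67 in WT and had a KO change of -0.14 (2.54 ± 0.6, adjusted p = 0.0133), but its second detected probe had an interaction of 0.04. Fchsd1, a membrane-bending F-BAR protein, fell by 2.38 in WT and had a KO change of -0.41 (1.96 ± 0.42, adjusted p = 0.0095).

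The other large rises had their highest group mean in E18.5 WT, as did small structured RNAs. Obox1, an oocyte homeobox gene, read 3.36, 3.8, 2.04 and 4.17 in E18.5 WT, 1.59, 0.96, 0.41 and 0.96 in P2.5 WT, 1.02, 0.57, 1.09 and 0.45 in E18.5 KO and 1.92, 1.69, 1.85 and 2.65 in P2.5 KO (3.61 ± 0.52, adjusted p = 0.00164). C2cd4c, a C2-domain protein (2.75 ± 0.5), and Olfr704, an olfactory receptor (1.94 ± 0.47), were likewise highest in E18.5 WT, with P2.5 KO next. With the scanner software's log ratios Obox1 (1.51, adjusted p = 0.177) and C2cd4c (0.74, adjusted p = 0.433) did not pass, and Olfr704 did not with the background fitted on all spots (adjusted p = 0.0561). Rnu2-10 and Rnu1b6, spliceosomal RNAs, had interactions of 2.54 ± 0.64 and 2.06 ± 0.64. Rnu1b6 lost its call without any 1 of 12 libraries and with slide as a random block (adjusted p up to 0.0824). Of 8 small structured RNAs tested 3 passed, all positive, beside 5.42% of all genes, with a list median of 0.96. Their mean log2 ratio was 0.52 to 1.65 in E18.5 WT, -0.19 to 1.35 in P2.5 WT, -0.39 to -0.13 in E18.5 KO and -0.43 to 0.89 in P2.5 KO. Their part in the values of Obox1, C2cd4c and Olfr704 was not tested.

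The largest negative interactions were led by genes of the extracellular matrix and plasma. Fn1, fibronectin, read 0.33, -1.17, 0.45 and 1.02 in E18.5 WT and 1.84, 1.23, 1.27 and 1.98 in P2.5 WT. It read 1.44, 2, 1.7 and 1.55 in E18.5 KO, then -0.14, 0.05, -0.51 and 0.48 in P2.5 KO. Neither genotype overlapped between ages (36.4% of all genes did not in KO), and E18.5 WT 2 was the lowest library. Fn1 rose by 1.42 in WT and fell by 1.7 in KO, which gave -3.12 ± 0.49 (adjusted p = 0.0027). Without both WT arrays of slide 2 the interaction was -2.78, and from Cy5 alone it was -2.

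Nid1, the basement membrane protein nidogen, read -0.19, -1.63, -0.33 and -0.14 in E18.5 WT, 0.91, 0.72, 0.19 and 0.92 in P2.5 WT, 0.11, 0.73, 0.31 and 0.41 in E18.5 KO and -1.14, -0.61, -1.31 and 0.1 in P2.5 KO (-2.39 ± 0.46, adjusted p = 0.00618). Itih5, an inter-alpha-trypsin inhibitor heavy chain that binds hyaluronan, read 2.03, 0.86, 1.87 and 2.24 in E18.5 WT, 2.56, 2.44, 2.83 and 2.7 in P2.5 WT, 2.95, 3.13, 2.9 and 3.01 in E18.5 KO and 1.28, 1.56, 0.89 and 2.38 in P2.5 KO (-2.35 ± 0.4, adjusted p = 0.00402). In both genes the libraries of the 2 ages did not overlap in either genotype, and P2.5 KO 4 was the highest of its group. The 3 detected Nid1 probes ran from -2.39 to -0.23. Within the slides that held both WT ages the WT rise was 1.62 for Fn1, 1.32 for Nid1 and 1.07 for Itih5, the last with an adjusted p of 0.0911.

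C3, the central complement protein, read 4.7, 2.91, 4.79 and 4.87 in E18.5 WT, 5.85, 5.71, 5.85 and 6.14 in P2.5 WT, 4.89, 5.13, 4.79 and 4.84 in E18.5 KO and 4.16, 4.08, 3.89 and 4.74 in P2.5 KO. E18.5 WT 2 stood below the other 3 libraries of its group. C3 rose by 1.57 in WT, its KO change of -0.69 did not pass (adjusted p = 0.118), and the interaction was -2.26 ± 0.46 (adjusted p = 0.00747). It was -1.81 without both WT arrays of slide 2 and -1.03 from Cy5 alone (adjusted p = 0.073).

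A2m, the protease inhibitor alpha-2-macroglobulin, read 4.34, 1.15, 3.15 and 4.18 in E18.5 WT, 2.28, 1.36, 0.8 and 2.59 in P2.5 WT, 4.39, 4.97, 4.73 and 4.74 in E18.5 KO and 0.28, 0.49, 0.14 and 0.96 in P2.5 KO. It was well above background on 2 of the 4 P2.5 KO arrays. A2m fell by 4.24 in KO, its WT change was -1.45 (adjusted p = 0.0558), and the interaction was -2.79 ± 0.76 (adjusted p = 0.0247). The call was lost without E18.5 KO 2 (-2.7, adjusted p = 0.0531) and with the scanner software's log ratios (-2.24, adjusted p = 0.114).

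**Figure D3:**
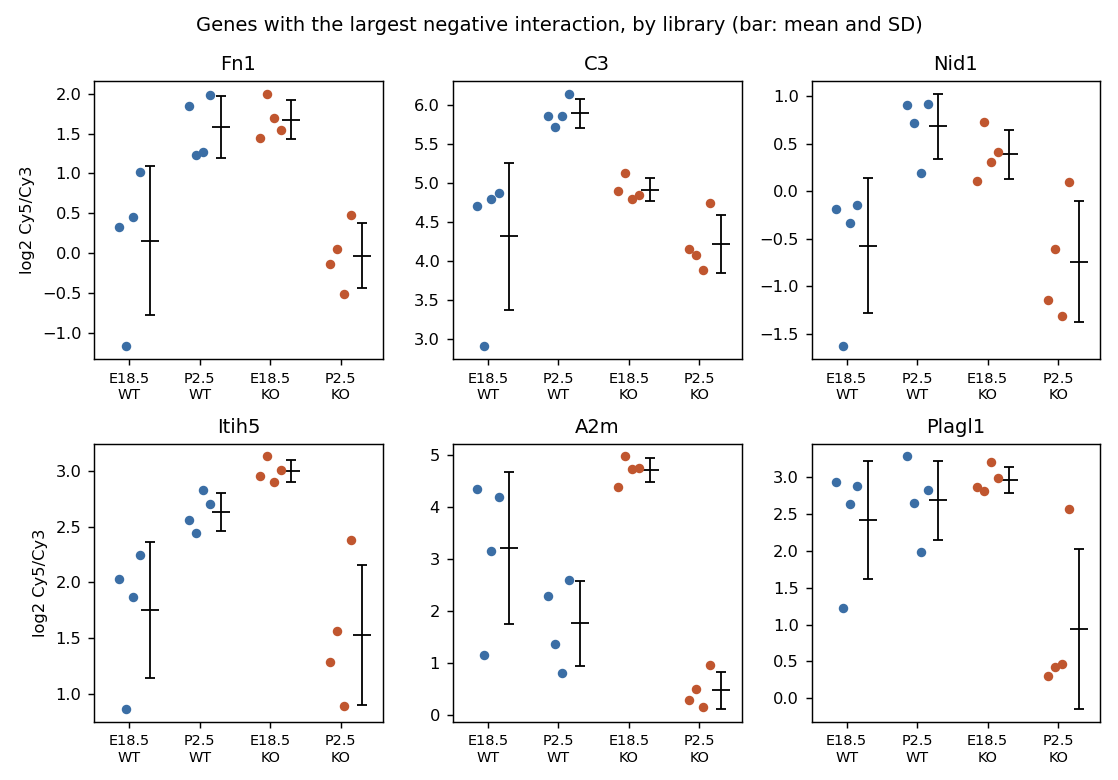
Log2 Cy5/Cy3 of 6 genes with large negative interactions in each of the 16 libraries (points, WT in blue and KO in orange), with group mean and SD as bars. Fn1 and Nid1 rose across birth in WT and fell in KO, and E18.5 WT 2 is the lowest E18.5 WT library in each panel (2.91 for C3).

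Other genes with large negative interactions fell in KO, most of them with a WT change that did not pass. Dars, the cytosolic aspartyl-tRNA synthetase, fell by 1.85 in KO, with a WT change of 0.35 (interaction -2.2 ± 0.44). Cntn4, a contactin, fell by 1.89 in KO, with a WT change of -0.02 (-1.87 ± 0.37). Slco2a1, a prostaglandin transporter, fell by 1.29 in KO, with a WT change of 0.56 (-1.84 ± 0.35). Rreb1, a zinc finger factor downstream of Ras, fell by 1.24 in KO, with a WT change of 0.84 (-2.08 ± 0.44). Deptor, an inhibitor of the kinase mTOR, fell by 1.14 in KO, with a WT change of 1.02 (-2.16 ± 0.53). The WT rises of Rreb1 and Deptor did not pass but make up a part of their interactions. Psd3, an exchange factor of ARF GTPases, rose by 0.8 in WT and fell by 1.14 in KO (-1.93 ± 0.29, adjusted p = 0.00194). Cntn4 lost its call with the scanner software's log ratios (-2.39, adjusted p = 0.141), and its other detected probe read 0.11. Probes of some of these genes disagreed in size, from -1.93 to -0.03 over 4 probes of Psd3 and from -2.08 to -0.18 over 3 of Rreb1. P2.5 KO 4 was the highest of its group for Dars (1.76, against 0.17 to 0.54 in the others). The same held for Rreb1 (1.22 against -0.39 to 0.41) and Deptor (1.16 against -0.09 to 0.67). For Cntn4 it was the lowest (0.17). Plagl1, an imprinted zinc finger gene of fetal growth, fell by 2.03 in KO (-2.3 ± 0.64, adjusted p = 0.0276), with P2.5 KO 4 at 2.56 far above the rest of its group. Its call was lost without any 1 of 6 libraries and with slide as a random block, with adjusted p up to 0.0633, and its 4 detected probes ran from -2.3 to 0.19.

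Genes that carry the glucagon signal mostly had negative interactions. Of 19 tested, 9 passed with a negative and 1 with a positive sign, beside 9.96% and 5.42% of all genes, and the median was -0.43. In WT 8 rose across birth and 2 fell (16.5% and 11.9% of all genes), and in KO 1 rose and 7 fell (14.7% and 16.5%). Itpr1 and Itpr2 encode inositol trisphosphate receptors, which release calcium from the endoplasmic reticulum. Itpr1 read -0.7, -1.2, -0.71 and -0.6 in E18.5 WT, 0.08, 0.21, 0.09 and 0.2 in P2.5 WT, 0.01, 0.15, 0.01 and -0.07 in E18.5 KO and -0.67, -0.64, -0.6 and -0.27 in P2.5 KO. P2.5 KO thus lay in the range of E18.5 WT apart from P2.5 KO 4, and the ages overlapped in neither genotype. Its interaction was -1.51 ± 0.17 (adjusted p = 0.000562), and that of Itpr2 was -1.44 ± 0.34 (adjusted p = 0.0132).

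Pde3b, a phosphodiesterase that breaks down cyclic AMP downstream of insulin, read 1.56, 1.22, 1.59 and 1.84 in E18.5 WT, 1.41, 1.06, 1.52 and 1.26 in P2.5 WT, 2.42, 2.75, 2.23 and 2.73 in E18.5 KO and 1.31, 1.02, 0.71 and 1.27 in P2.5 KO. E18.5 KO stood above all other libraries, and the interaction was -1.22 ± 0.23 (adjusted p = 0.00539). Foxo1, the insulin-restrained activator of gluconeogenic genes, was also highest in E18.5 KO and fell by 0.87 in KO (-1.06 ± 0.25, adjusted p = 0.0123). The G protein subunits Gnas, the Gs alpha subunit (-0.8 ± 0.24, adjusted p = 0.0349), and Gnaq (-0.55 ± 0.12, adjusted p = 0.0112) had smaller interactions, and Creb1, the transcription factor CREB, was positive (0.44 ± 0.14, adjusted p = 0.0426). Gnas lost its call without any 1 of 11 libraries (adjusted p up to 0.0889), with interactions of -0.8 to -0.02 over its 3 detected probes, and Creb1 without any 1 of 13 and with the replicate block (adjusted p up to 0.193). Prkaca, the catalytic subunit of protein kinase A, had an interaction of 0.02 ± 0.15 (adjusted p = 0.935).

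Of 17 genes known to respond to cyclic AMP, 1 passed, Igfbp1, beside 15.4% of all genes. The list median was 0.05 (-0.05 with the mean of all probes). Pck1 encodes the cytosolic PEPCK and is a textbook target of CREB, so its promoter window is given (RefSeq, GRCm38.p6, chr2:173152823-173153122, + strand, written as above), with the CREB core TGACG, found on either strand, in capitals.
Pck1: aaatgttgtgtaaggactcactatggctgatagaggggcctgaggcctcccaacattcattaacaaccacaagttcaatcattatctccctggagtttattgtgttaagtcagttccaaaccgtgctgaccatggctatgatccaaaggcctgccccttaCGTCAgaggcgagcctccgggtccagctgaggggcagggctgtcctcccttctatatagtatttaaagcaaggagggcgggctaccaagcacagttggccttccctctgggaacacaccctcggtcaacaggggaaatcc
The core was in 10 of 15 windows of the cyclic AMP list (66.7%), in 5 of 12 of the gluconeogenesis list (41.7%) and in 3677 of 13324 windows of tested genes (27.6%). Its letters were not in the Igfbp1 window.

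Pck1 read 5.51, 6.25, 6.3 and 4.04 in E18.5 WT, 7.01, 7.45, 8.36 and 7.17 in P2.5 WT, 5.14, 4.51, 4.42 and 3.5 in E18.5 KO and 7.31, 7.27, 6.73 and 6.8 in P2.5 KO. The ages did not overlap in either genotype, and the genotypes overlapped at both ages. Pck1 rose by 1.97 in WT (adjusted p = 0.00346) and by 2.63 in KO (adjusted p = 0.000381), and the interaction of 0.66 ± 0.63 did not pass (adjusted p = 0.504). Tat, the aminotransferase that starts tyrosine breakdown, read 3.52, 3.77, 4.03 and 1.71 in E18.5 WT, 4.92, 5.26, 5.47 and 4.39 in P2.5 WT, 2.72, 2.11, 2.73 and 2.15 in E18.5 KO and 5.03, 5.07, 5.25 and 4.26 in P2.5 KO (interaction 0.72 ± 0.56, adjusted p = 0.412). It rose in both, by 1.75 and 2.47, and E18.5 WT 4 was the lowest WT library in both genes. G6pc, glucose-6-phosphatase, rose in KO by 0.72, with a WT change of 0.4 (adjusted p = 0.166) and an interaction of 0.32 ± 0.29 (adjusted p = 0.481). The Tat and Pck1 estimates moved with E18.5 WT 4: without it the Tat interaction was 1.24 and passed (adjusted p = 0.0324), and that of Pck1 was 1.16 and did not (adjusted p = 0.117). Leaving out other single libraries gave 0.46 to 0.94 for Tat and 0.36 to 0.95 for Pck1, and Pck1 was 0 with the scanner software's log ratios and 1.55 from Cy5 alone, without a call.

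Igfbp1, an insulin-like growth factor binding protein, had a negative interaction. It read 8.29, 8.48, 8.5 and 8.31 in E18.5 WT, 8.5, 8.89, 9.21 and 8.52 in P2.5 WT, 9.42, 9.01, 8.73 and 9.63 in E18.5 KO and 7.9, 7.77, 7.42 and 8.05 in P2.5 KO. KO was above WT before birth and below it after, without overlap at either age (as for 32.9% and 19% of all genes), and the interaction was -1.8 ± 0.27 (adjusted p = 0.00227). From Cy5 alone the sign reversed, to 0.66 (adjusted p = 0.0603). Fgf21, a fasting hormone, rose in both genotypes, by 2.5 in WT and 3.81 in KO (interaction 1.31 ± 1, adjusted p = 0.396). Sik1, a kinase that restrains CREB coactivators, was higher in KO at both ages, by 0.97 and 0.9, with an interaction of -0.07 ± 0.31 (adjusted p = 0.909). Irs2, an insulin receptor substrate, was lower in KO by 1.05 at P2.5, and its interaction of -0.73 ± 0.29 did not pass (adjusted p = 0.103), but without E18.5 WT 4 it was -0.94 and passed (adjusted p = 0.0198). Ppargc1a, a coactivator of gluconeogenesis (-0.68 ± 0.52, adjusted p = 0.398), and Crem, a CREB-related factor (0.16 ± 0.27, adjusted p = 0.743), did not pass either.

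**Figure D4:**
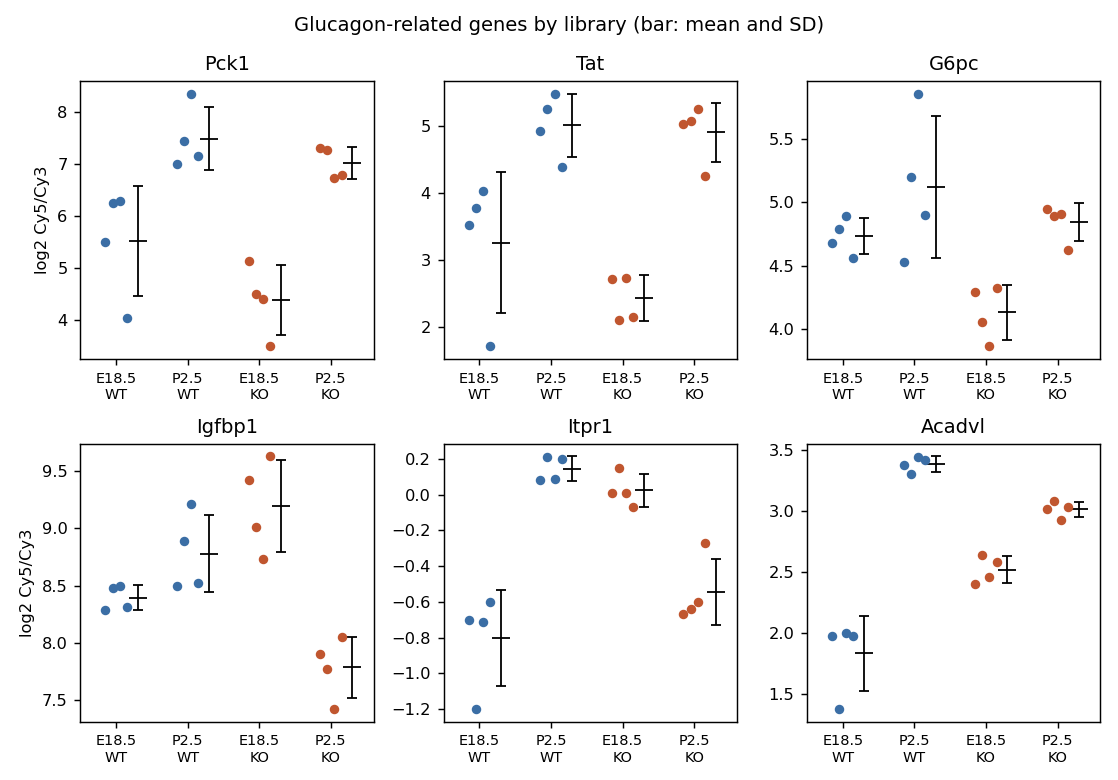
Log2 Cy5/Cy3 of 6 glucagon-related and metabolic genes in each of the 16 libraries (points, WT in blue and KO in orange), with group mean and SD as bars. Pck1 and Tat rose across birth in both genotypes, Igfbp1 fell in KO alone, and Acadvl rose from 1.38 to 2 up to 3.3 to 3.44 in WT and by less in KO.

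Of 14 gluconeogenesis genes 6 passed, each with a negative interaction, beside 9.96% of all genes, and the list median was -0.43. Mdh1, cytosolic malate dehydrogenase, rose by 0.39 in WT and fell by 0.49 in KO (-0.88 ± 0.18, adjusted p = 0.00746). Pcx, pyruvate carboxylase (-0.72 ± 0.18, adjusted p = 0.0195), and Fbp1, fructose-1,6-bisphosphatase (-0.68 ± 0.18, adjusted p = 0.0202), fell in KO by 0.56 and 0.41. Both lost their call with the scanner software's log ratios and from Cy5 alone, and Pcx also with slide as a random block. At E18.5, 5 of the 14 were higher in KO (13.8% of all genes), and at P2.5, 3 were lower (9.7%).

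Genes of amino acid breakdown rose across birth more often in WT than in KO by count. Of 49 catabolic genes 19 rose in WT, beside 16.5% of all genes, while in KO 9 rose and 8 fell, near the 14.7% and 16.5% of all genes. Of the 49, 11 had a negative interaction, beside 9.96% of all genes. The median of -0.33 was -0.16 with array weights, -0.18 without both WT arrays of slide 2 and -0.19 with the scanner software's log ratios. Aldh6a1, which oxidises the products of valine and thymine breakdown, read 2.57, 2.42, 2.48 and 2.52 in E18.5 WT, 3.32, 2.77, 3.42 and 3.09 in P2.5 WT, 2.91, 3.14, 3 and 2.96 in E18.5 KO and 2.67, 2.45, 2.16 and 2.79 in P2.5 KO (-1.14 ± 0.2, adjusted p = 0.00419). Hibadh, another enzyme of valine breakdown, rose by 0.6 in WT and fell by 0.24 in KO (-0.84 ± 0.12, adjusted p = 0.00156). Sds, serine dehydratase, did not pass (-0.62 ± 0.54, adjusted p = 0.46). Slc7a2, a transporter of arginine and lysine, fell by 1.09 in KO, with a WT change of 0.17 (-1.26 ± 0.18, adjusted p = 0.00167). Of 17 amino acid transporters 3 were negative and 1 positive (9.96% and 5.42% of all genes).

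Of 8 urea cycle genes 2 passed, each with a negative interaction, beside 9.96% of all genes. They were Cps1, the first enzyme of the cycle, and Ass1, argininosuccinate synthase. Cps1 fell by 1.03 in KO, with a WT change of -0.28 (interaction -0.75 ± 0.16, adjusted p = 0.00864), but its interaction was 0.17 (adjusted p = 0.799) with the scanner software's log ratios. Ass1 fell by 1.37 in KO (-0.88 ± 0.25, adjusted p = 0.0307) and lost its call without any 1 of 4 libraries, with adjusted p up to 0.157 over all alternatives. Otc, ornithine transcarbamylase (-0.41 ± 0.21, adjusted p = 0.205), and Arg1, arginase (-0.2 ± 0.23, adjusted p = 0.594), did not pass as reported. Otc gained a call with the mean of all probes (-0.86, adjusted p = 0.0182) and without P2.5 WT 2 (-0.57, adjusted p = 0.0468), and Arg1 from Cy5 alone (-1.13, adjusted p = 0.0264). With the scanner software's log ratios both were positive without a call, Otc at 0.28 and Arg1 at 0.12.

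Fatty acid oxidation genes rose across birth in both genotypes, and 11 of 28 had a negative interaction, beside 9.96% of all genes. In WT 22 rose, beside 16.5% of all genes, with a median change of 0.99, and in KO 16 rose, beside 14.7%, with a median of 0.61. Acadvl, the very-long-chain acyl-CoA dehydrogenase, read 1.98, 1.38, 2 and 1.98 in E18.5 WT, 3.38, 3.3, 3.44 and 3.42 in P2.5 WT, 2.4, 2.64, 2.46 and 2.58 in E18.5 KO and 3.02, 3.08, 2.93 and 3.03 in P2.5 KO. The 4 groups did not overlap, since KO began above WT and ended below it (-1.05 ± 0.16, adjusted p = 0.0027). Acads, the short-chain enzyme (-0.87 ± 0.21, adjusted p = 0.0132), and Etfa, which passes the electrons of these enzymes on (-0.86 ± 0.15, adjusted p = 0.00475), rose in WT by 1.19 and 0.94, with KO changes of 0.32 and 0.08. At E18.5, 7 of the 28 were higher in KO (13.8% of all genes), and at P2.5, 9 were lower (9.7%).

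Of 17 glycogen genes 8 passed, each with a negative interaction, beside 9.96% of all genes. Their median was -0.69, and -0.43 with the mean of all probes. At E18.5, 6 were higher in KO (13.8% of all genes), and at P2.5, 4 were lower (9.7%). Ppp1r3b, which targets a phosphatase to glycogen, fell by 1.13 in KO (-1.06 ± 0.25, adjusted p = 0.0136). Glycolysis fell in both genotypes, 10 of 20 genes in WT (11.9% of all genes) and 17 in KO (16.5%), and 5 had a negative interaction. Pfkfb3, which makes the activator of phosphofructokinase, fell by 1.79 in KO, with a WT change of -0.55 (-1.23 ± 0.3, adjusted p = 0.0141), and its 2 detected probes read -1.23 and -0.26.

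Genes of respiration and of proteins made for the plasma were also among the negative calls. Of 34 oxidative phosphorylation genes 9 passed, each negative (9.96% of all genes), among them Atp5b, a subunit of ATP synthase (-1.05 ± 0.22, adjusted p = 0.00931), and Sdha of complex II (-0.97 ± 0.21, adjusted p = 0.00964). Of 33 secreted hepatocyte proteins 9 passed, each negative, and 19 were lower in KO at P2.5 (9.7% of all genes). The acute phase list had no call by limma among 20 genes, with 4 at an unadjusted p under 0.05. In the other direction, 5 of 42 cytosolic ribosomal proteins were positive, beside 5.42% of all genes. The list median was 0.07 (-0.01 with the scanner software's log ratios). An example was Rps3 (0.49 ± 0.12, adjusted p = 0.0143), which fell by 0.45 in WT.

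Receptors and regulators of the hormonal response were among the negative calls. Insr, the insulin receptor, rose by 0.62 in WT and fell by 0.82 in KO (-1.43 ± 0.29, adjusted p = 0.00733; -1.51 to -0.43 over 3 probes), and Akt2, the insulin-responsive kinase, rose by 0.56 in WT, with a KO change of -0.06 (-0.62 ± 0.11, adjusted p = 0.00461; -0.62 to -0.12 over 3 probes). These are 2 of 5 negative calls among 14 genes of the growth hormone and insulin axis, beside 9.96% of all genes. Nr3c1, the glucocorticoid receptor, fell by 0.83 in KO (-1.16 ± 0.26, adjusted p = 0.0107) and was the single call among 12 glucocorticoid genes. Of 24 genes of the cholesterol list 3 were negative. Of 17 circadian genes 3 were negative, among them Rora, which rose by 0.89 in WT and fell by 0.81 in KO (-1.7 ± 0.3, adjusted p = 0.00461), and Clock (-1.09 ± 0.18, adjusted p = 0.00309). Hspa5, the endoplasmic reticulum chaperone BiP, rose by 1.34 in WT, with a KO change of -0.13 (-1.47 ± 0.32, adjusted p = 0.0105), 1 of 3 negative calls among 20 stress genes. The counts of the glucocorticoid, cholesterol and stress lists were near the share over all genes.

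Over the 26 pathway lists 115 calls were made, 14 positive and 101 negative, counting each gene once. Over all genes tested, 5.42% were called positive and 9.96% negative. The count was 63 with slide as a random block (3 positive, 60 negative), 70 with the scanner software's log ratios (13 and 57), 63 without E18.5 KO 2, 73 without E18.5 KO 4, 74 without P2.5 KO 3, 75 without P2.5 KO 1 and 75 without E18.5 WT 2. Of the remaining pathway lists, bile acid genes had 3 negative calls of 14, drug-metabolising enzymes 3 of 27, hypoxia genes 2 of 13 and fetal liver genes 4 of 17, beside 9.96% of all genes. Lipogenesis had 1 positive call of 19, immediate early genes 1 of 15 and cell cycle genes 2 of 37, beside 5.42%. The shares of drug-metabolising enzymes, lipogenesis and the cell cycle were near these backgrounds.

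**Figure D5:**
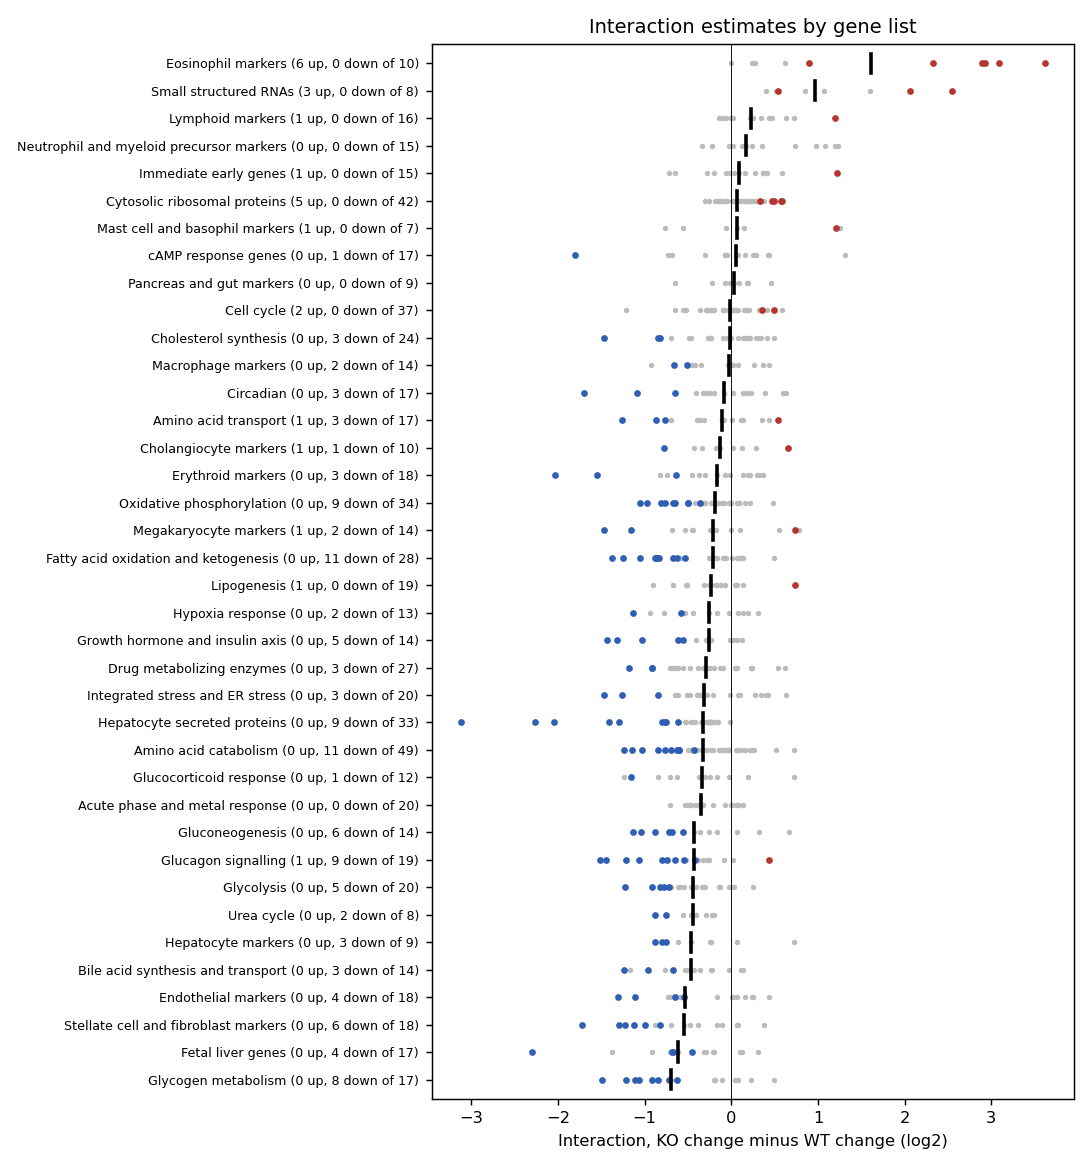
Interaction estimates (KO change minus WT change, log2 Cy5/Cy3, x axis) of all tested members of each gene list (rows), with called genes in red (positive) or blue (negative), the others in grey and the list's median as a black bar. Eosinophil markers (median 1.61) stand at the top and glycogen metabolism (median -0.69) at the bottom.

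Markers of other liver cells were also read, and their counts stand beside 9.96% negative and 5.42% positive calls over all genes. Of 9 hepatocyte markers 3 were negative, and their summed Cy5 signal overlapped between all groups except that P2.5 KO (1060000 to 1170000) lay below E18.5 KO (1250000 to 1390000). Of 18 endothelial markers 4 were negative, with a median of -0.54 that was 0.02 with the scanner software's log ratios. Ptprb, the endothelial tyrosine phosphatase, rose by 1.45 in WT, with a KO change of 0.15 (-1.31 ± 0.25, adjusted p = 0.00566, lost with the scanner software's log ratios at 0.184). Flt1, a VEGF receptor, rose by 0.8 in WT, with a KO change of -0.31 (-1.11 ± 0.25, adjusted p = 0.0116). Of 18 stellate cell and fibroblast markers 6 were negative, among them Reln, reelin (-1.29 ± 0.28, adjusted p = 0.0102), and their summed signal was 64700 to 84700 in P2.5 WT and 40100 to 65100 in P2.5 KO. Vwf (-1.16 ± 0.22, adjusted p = 0.00539) and Itga2b (-1.47 ± 0.34, adjusted p = 0.0129), both made in megakaryocytes, were negative, and 1 of 14 megakaryocyte markers was positive. Macrophage markers had 2 negative calls of 14 and lymphoid markers 1 positive of 16. Mast cell and basophil markers had 1 positive of 7, and cholangiocyte markers 1 of each sign of 10. The megakaryocyte, macrophage, lymphoid and cholangiocyte counts were near the shares over all genes. Pancreas and gut markers had no call by limma among 9, with 1 at an unadjusted p under 0.05. The part of shifts in these cell types in the other results was not tested.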

How the data were processed

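Each array held Cy5-labelled liver RNA and Cy3-labelled universal reference RNA, with no dye swap. The deposited files give spot intensity in both channels and a log10 ratio from Agilent Feature Extraction (11.5.1.1 on WT arrays and 11.0.1.1 on KO arrays, per the file headers). The authors' deposited value table held log2 ratios, centred on the median (column medians -0.001192 to 0.007564). Its own scale and direction are unstated, but it correlated at 0.9999 to 1 with the Cy5/Cy3 ratios used here, so its direction is the same. With it 2594 genes passed the interaction test, 491 of them at least 2-fold, against 2584 and 485 here.

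Here, median intensities, without spots flagged as outliers, were background-corrected (normexp, offset 50) and normalised by loess within arrays, with control spots at weight 0, in limma 3.58.1 (R 4.3.3). Of 39429 probes 26581 carried 1 gene symbol (20144 genes). The probe brightest in Cy5 stood for each gene, and 16805 genes were tested, those detected above background in the Cy5 channel of 4 or more arrays. One mean per group was fitted to the 16 arrays (lmFit, eBayes), with Benjamini-Hochberg adjustment at 0.05. The fit was also run on simulated data with independent errors and no slide effect. It recovered 44% of 1.5-fold, 80% of 2-fold and 100% of 4-fold simulated interactions. Without a slide effect the simulation cannot show how the fit behaves under the slide layout of these arrays. Precision is limited by having 4 arrays a group. The 8 arrays of P7.5 entered 1 alternative only.

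Genes were named by a rule: Gcgr, the 15 largest called rises and falls with informative symbols, up to 4 called members per list, up to 3 genes per class, and any member of the glucagon, cyclic AMP, gluconeogenesis, amino acid and urea lists; a part of these is printed, and some are not reported here. Genes and lists were chosen with earlier results of these data known. Alternatives changed the scaling, background, filter, probe choice, slide or replicate block, array weights and the libraries used. Promoters came from RefSeq tables of GRCm38.p6, which gave a window for 13324 genes. The same replicate number did not pair libraries.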

Additional observations from a re-analysis of the deposited data

Results flagged for a closer look

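The change across birth differed between genotypes for 2584 genes by the interaction test, as described above.

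Within groups of 4 libraries, 19 of 308 gene and group combinations (6.17%) had 1 library standing apart by Dixon's criterion, where chance flags about 1 in 20. E18.5 WT 2 accounted for 5 of them, being low for Acadvl (1.38), C3 (2.91), Itga2b (0.91), Nid1 (-1.63) and Slco2a1 (0.64). P2.5 KO 4 accounted for 4, being high for Itpr1 (-0.27), Plagl1 (2.56) and Reln (0.99) and low for Sik1 (2.05). E18.5 KO 4 was high for Clock (-1.02), Ear1 (5.07) and Epx (2.2). P2.5 KO 3 stood apart for Acads (1.4), Ppp1r3b (0.86) and Prkaca (-0.26), E18.5 KO 1 for Otc (6.12), E18.5 KO 3 for Fgf21 (-0.2) and Irs2 (0.22), and P2.5 WT 3 for Ppp1r3b (2.25).

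Outside the comparison, Gcgr in the 4 livers labelled KO at P7.5 read 0, 5.02, 0.26 and -0.01, against 5.5 to 5.65 in the 4 WT livers of that age. The library labelled P7.5 KO 2 thus stood near WT for the targeted gene.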

How the results depend on the processing

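Of 64 called genes named above, 44 kept call and direction in every alternative run, 19 lost the call in at least 1, and 2 reversed: Cps1 (0.17 with the scanner software's log ratios), which is also among the 19, and Igfbp1 (0.66 from Cy5 alone). Calls were gained by Otc, Arg1, Irs2 and Tat, as given above. Slide as a random block (correlation 0.275) lowered the interaction count from 2584 to 1309, the KO minus WT counts to 1648 at E18.5 and 2122 at P2.5, the KO change to 2800, the KO-only and both-genotype classes to 356 and 163 and the list calls to 63. In WT arrays alone with slide as a fixed block, 1695 genes changed across birth. Array weights gave 4578 interaction genes, 2429 in KO only and 987 in both. All 24 arrays gave 635 in both, and the scanner software's log ratios 70 list calls. The cause of these shifts was not tested. Leaving out 1 library at a time gave 1466 to 3540 interaction genes, 2565 to 4502 and 1898 to 3952 for KO minus WT at E18.5 and P2.5, 4072 to 4998 for the WT change, 4104 to 5824 for the KO change, 559 to 1136 in WT only, 552 to 1660 in KO only, 196 to 631 in both and 63 to 135 list calls. Without both WT arrays of slide 2, an alternative chosen after seeing the data, 2481 genes passed.

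Libraries with the same replicate number deviated together in 2 of 16 pairs (correlations -0.31 to 0.21), and 3 of 16 libraries correlated best with their own number. With the replicate block the interaction count was 2501.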

Other observations

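Replication-dependent histone genes, a group chosen after the values were seen, had 18 positive calls of 43 tested, beside 5.42% of all genes, and a median interaction of 0.51 (-0.65 to 1.55). Their median change across birth was -0.7 in WT and -0.07 in KO. The mean log2 ratio of the group was 0.73 to 1.23 in E18.5 WT, 0.29 to 0.4 in P2.5 WT, 0.53 to 0.7 in E18.5 KO and 0.37 to 0.54 in P2.5 KO, with E18.5 WT 2 at 1.23. These messages lack a poly(A) tail, and the small structured RNAs described above were also highest in E18.5 WT 2. The part of RNA type or of this library in the histone values was not tested.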
